A study of Mus musculus with 6 samples.

Results

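Messages of 4 classes of the pre-mRNA splicing machinery were followed through an RNA immunoprecipitation (RIP) of CPEB4 from mouse muscle stem cells. The classes were the SR proteins (symbols Srsf followed by a digit), the hnRNPs (Hnrnp), the snRNP proteins (Snrp) and the subunits of SF3a and SF3b (Sf3a or Sf3b followed by a digit). Matching the symbols of the count table took 53 of its 55376 genes, namely 11 SR proteins, 20 hnRNPs, 13 snRNP proteins and 9 SF3 subunits. A further 4 rows with names that mark them as pseudogenes (Snrp1c-ps1, Snrp1c-ps2, Hnrnpa1l2-ps and Hnrnpa1l2-ps2) were left out, with 0 to 31 counts in any library. Snrpert met the rule, although RefSeq lists it as a pseudogene. The main class medians of the log2 fold change in CPEB4 RIP are given with and without it, and other class values include it. All 53 members passed the low-count filter and were among the 18054 genes tested.

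The RNA came from FACS-isolated muscle stem cells of C57BL/6 mice at 3 months of age, with no other genotype or treatment given. The groups were CPEB4 RIP (RNA recovered with an antibody to CPEB4), IgG RIP (RNA recovered with IgG, the antibody background) and input (RNA before immunoprecipitation), with 2 libraries each. CPEB4 belongs to the CPEB family, which binds the cytoplasmic polyadenylation element in the 3′ untranslated region of messages and controls their poly(A) tail and translation. The labels name neither animals nor preparations behind a replicate, and the p-values therefore reflect the spread of these libraries, part of which may be technical.

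Introns are removed by the spliceosome, which is built from small nuclear ribonucleoproteins. Each of the U1, U2, U4 and U5 particles holds an RNA ringed by the Sm core proteins (B, the D proteins, E, F and G) together with proteins of its own, such as the A and C proteins of U1. SF3a and SF3b are parts of U2 and hold it at the branch point. SR proteins and hnRNPs bind the pre-mRNA itself, where SR proteins mostly favour the use of an exon and hnRNPs often oppose it, and several members of both families also act on export, stability or translation in the cytoplasm.

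The CPEB4 RIP libraries held 12679621 and 20843042 assigned counts, the IgG RIP libraries 9018323 and 14225502, and the input libraries 16314360 and 12426827. These PCR reads carry no molecular identifiers, so the depth limits counting error only. Levels are given as CPM, counts scaled to a common library total, with library sizes set by TMM, a trimmed mean of log ratios. The IgG RIP libraries stood apart from each other, with Pearson's r of 0.873 across all genes tested (log2 CPM), the lowest of any pair, although r over the 53 members was 0.990. The 2 CPEB4 RIP libraries had r of 0.981 and the 2 input libraries 0.975 across all genes. All 8 muscle stem cell markers were detected in every library, with Pax7 at 289.7 and 265 CPM in CPEB4 RIP, 189 and 282 CPM in IgG RIP and 151 and 174 CPM in input. Their sum of 45773 to 68314 CPM was mostly Sdc4 (41597 to 61956 CPM). Of the 8, 0 were called higher and 1 lower over IgG, and 1 higher and 2 lower over input. By the same test, 4.79% of all genes tested were called higher and 3.42% lower over IgG, and 8.0% and 4.70% over input. Among the markers of other cell types, 5 erythroid genes summed to 657 and 327 CPM in CPEB4 RIP, against 86.8 and 147 CPM in IgG RIP and 109 and 179 CPM in input, and 3 of the 5 passed the test over IgG. The 4 fibro-adipogenic markers summed to 1670 and 1352 CPM in CPEB4 RIP, against 786 and 1100.2 CPM in IgG RIP and 568 and 736 CPM in input, with 1 of 4 past the test over IgG. The 6 myofibre markers summed to 237 and 185 CPM in CPEB4 RIP, against 108 and 142 CPM in IgG RIP and 113 and 171 CPM in input, with 3 past the test over IgG. The 6 leukocyte markers summed to 59.4 and 82.7 CPM in CPEB4 RIP, against 36 and 51.7 CPM in IgG RIP and 32.5 and 39.3 CPM in input, with 1 past the test over IgG, and the 4 endothelial markers to 159 and 121 CPM in CPEB4 RIP, against 113 and 134 CPM in IgG RIP and 147 and 169 CPM in input, with 0 past it. Cd3e, the T cell marker, was at 0 in the first CPEB4 library and the second IgG library. The part of these cells in the values of the splicing genes was not tested, and in bulk RNA fewer cells of a type and less RNA per cell cannot be told apart.

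The promoters of 46 members are in the RefSeq promoter set for GRCm38.p6, the assembly behind mm10, as 250 bases before to 50 bases after the annotated start. The letters CCGGAAG, a core that ETS family factors are known to bind, were searched on both strands. They occurred in 16 of the 46 members (34.8%) and in 2683 of all 27025 genes with a promoter in the set (9.93%). A gene was counted if any of its promoters held the letters, and the 27025 were not limited to genes detected here. By class the letters were in 6 of 7 SF3 subunits, 4 of 10 snRNP proteins, 4 of 11 SR proteins and 2 of 18 hnRNPs. They stood in 3 of the 6 members higher over IgG and in 2 of 8 members lower than IgG. A window of 100 bases (70 before the start and 30 from it on) is shown for 1 message of each direction, Snrpe (higher in CPEB4 RIP than in IgG RIP) and Srsf5 (lower). Capitals mark the searched letters, at 7 bases after the start in Snrpe (chr1:133610251-133610350, minus strand) and 23 bases before it in Srsf5 (chr12:80945429-80945528, plus strand).
Snrpe: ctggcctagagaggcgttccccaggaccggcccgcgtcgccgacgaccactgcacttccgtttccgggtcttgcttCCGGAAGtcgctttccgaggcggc
Srsf5: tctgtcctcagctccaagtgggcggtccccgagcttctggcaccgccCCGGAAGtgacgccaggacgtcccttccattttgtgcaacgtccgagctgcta
Both directions thus hold promoters with these letters, and a match is a description of the sequence only.

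Taken as a share of all assigned counts, the 53 members together made up 1.05% ± 0.0365 in CPEB4 RIP, against 1.44% ± 0.0890 in libraries of IgG RIP and 1.25% ± 0.0585 in those of input (SD, n = 2 each). SF3 subunits took 0.0804% ± 0.000933 in CPEB4 RIP, where IgG RIP had 0.160% ± 0.00302 and input 0.149% ± 0.00688, so that both CPEB4 libraries lay far below the other 4. The hnRNPs took 0.512% ± 0.00887 in CPEB4 RIP, where IgG RIP had 0.728% ± 0.0485 and input 0.587% ± 0.0429. The SR proteins took 0.309% ± 0.0239 in CPEB4 RIP, where IgG RIP had 0.407% ± 0.0489 and input 0.398% ± 0.0266. In both classes the CPEB4 libraries were below the others without overlap. The snRNP proteins were at 0.152% ± 0.00459 in CPEB4 RIP, where IgG RIP had 0.145% ± 0.00533 and input 0.119% ± 0.00412. Their CPEB4 and IgG libraries overlapped and both groups lay above input. These shares carry no test, since 2 libraries against 2 cannot give a two-sided exact permutation p under 0.33, and abundant messages weigh most in them.

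**Figure D1:**
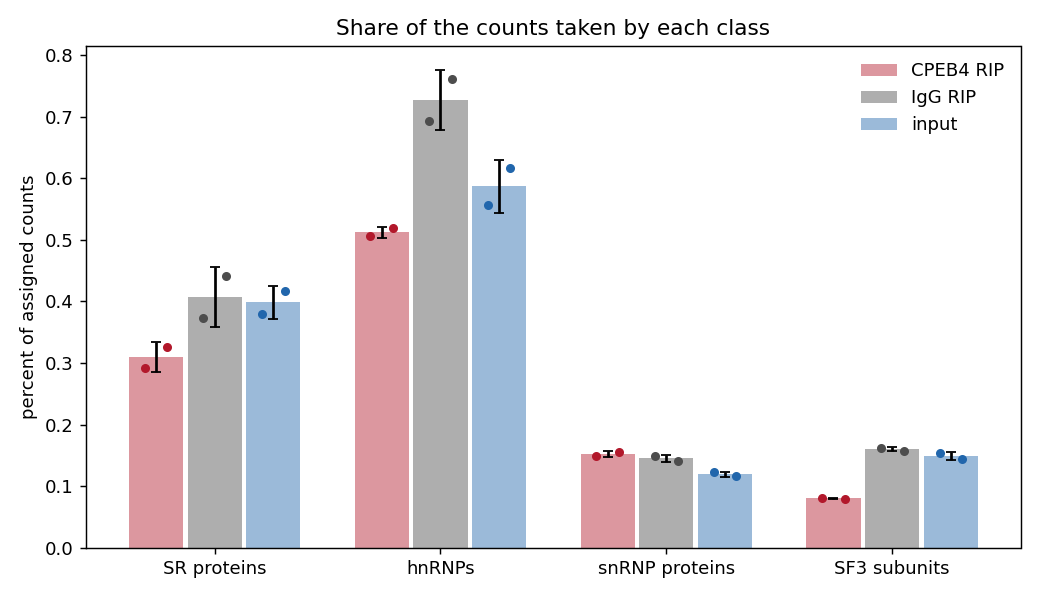
Share of all assigned counts (percent, vertical axis) taken by each class of messages. Bars are means over 2 libraries, error bars are SD and points are libraries. SF3 subunits had a mean of 0.0804% in CPEB4 RIP, where IgG RIP had 0.160% and input 0.149%. The snRNP proteins had means of 0.152%, 0.145% and 0.119% for the groups as drawn from left to right.

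Levels were compared between genes only as FPKM, which divides by gene length. Srsf7, an SR protein that shuttles between nucleus and cytoplasm, was the most abundant of its class in every group, at 128 ± 13.9 FPKM in CPEB4 RIP, 181 ± 28.8 FPKM in IgG RIP and 200.4 ± 26.8 FPKM in input (SD, n = 2 each). Among the hnRNPs the first place went to Hnrnpa1, a widely expressed binder of splicing silencers, at 142 ± 10.5 FPKM in CPEB4 RIP and 192 ± 43.9 FPKM in IgG RIP, but to Hnrnpk in input at 158 ± 19.7 FPKM. In IgG RIP Hnrnpk came next at 163 ± 20.9 FPKM, and differed from Hnrnpa1 by less than the SD of Hnrnpa1. In CPEB4 RIP Hnrnpa2b1 came next at 91.7 ± 1.86 FPKM, and in input Hnrnpa1 at 116 FPKM. In both of these groups the gap was wider than the SD of Hnrnpa1 in that group. Snrpb, the Sm protein B, led the snRNP proteins at 190.5 ± 1.83 FPKM in CPEB4 RIP, 198 ± 8.69 FPKM in IgG RIP and 142.5 ± 0.260 FPKM in input. Sf3b1 led the SF3 subunits at 26.9 ± 0.0525 FPKM in CPEB4 RIP, 62.8 ± 7.26 FPKM in IgG RIP and 55.2 ± 2.04 FPKM in input. Srsf12 was at the floor of its class, with 13 and 12 counts in CPEB4 RIP, 0 and 1 counts in IgG RIP and 3 and 12 counts in input, and no fold is given for it.

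**Figure D2:**
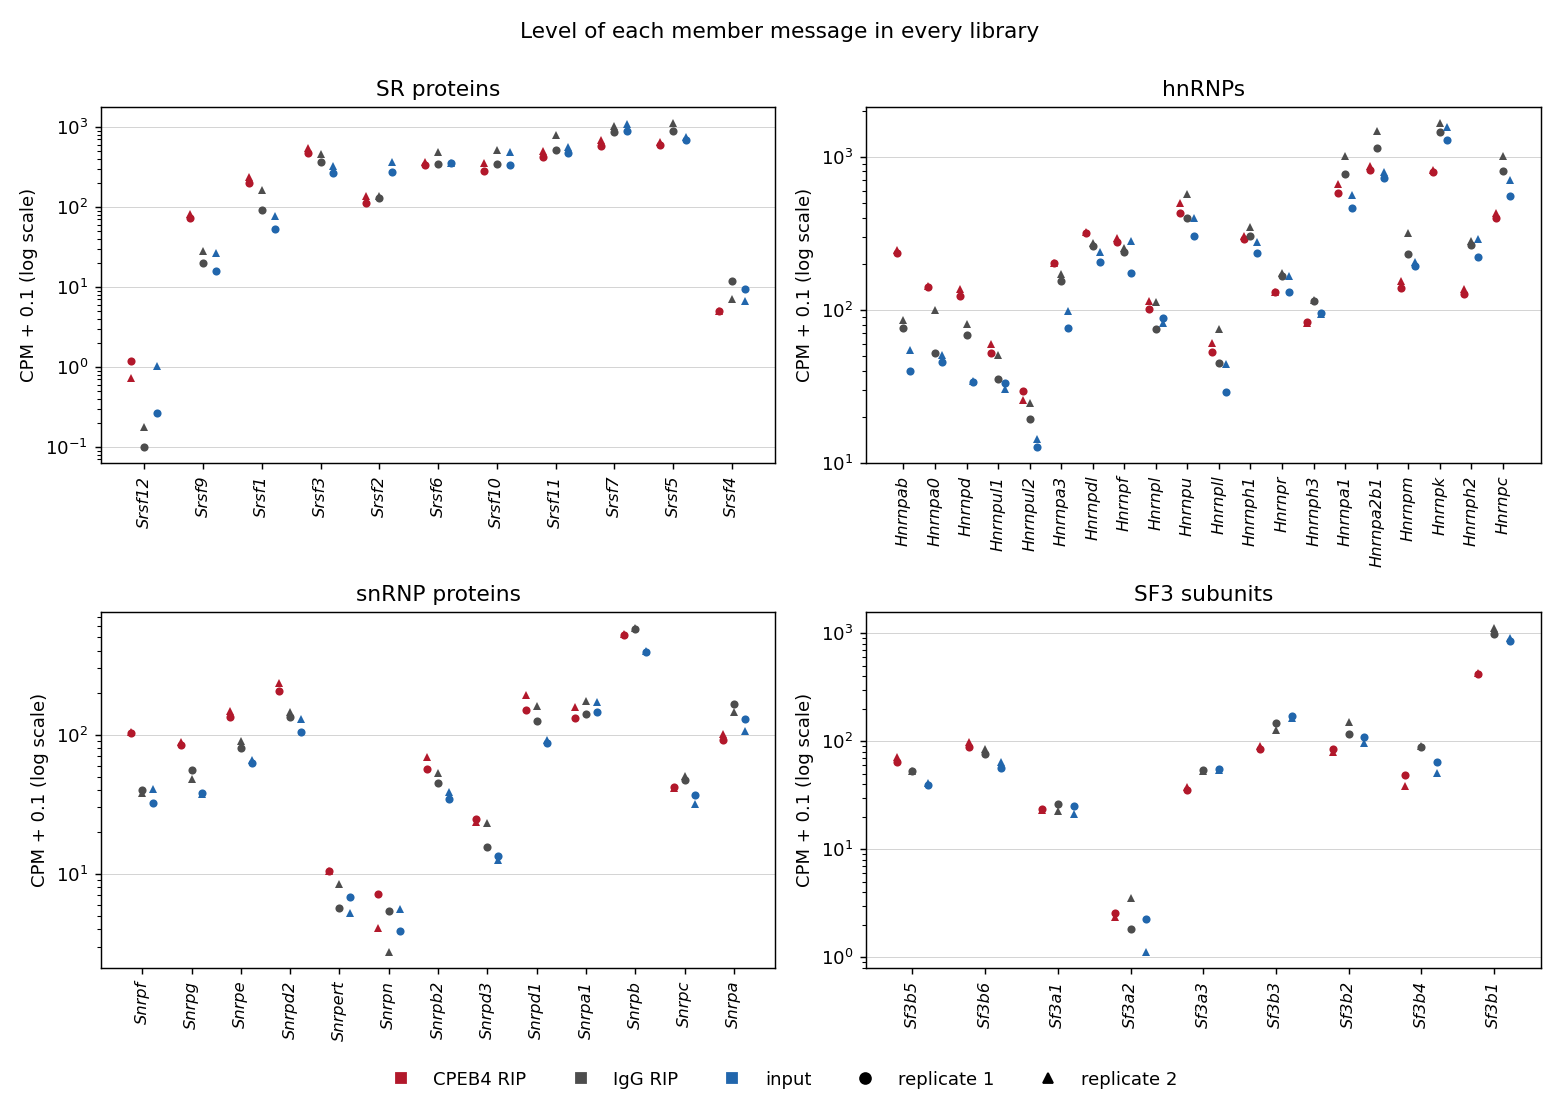
Level of each of the 53 members in every library, as CPM + 0.1 on a log scale, by class and ordered by the log2 fold change of CPEB4 RIP over IgG RIP. Colours are groups and symbols replicate numbers. Snrpf sat at 103 and 104 CPM in CPEB4 RIP above all other libraries, and Sf3b1 at 419.9 and 430.4 CPM below them.

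Setting CPEB4 RIP against IgG RIP asks which messages the CPEB4 antibody recovered beyond the background of an antibody without that target. In edgeR's quasi-likelihood test with Benjamini-Hochberg adjustment over all genes, 6 members were higher in CPEB4 RIP (Srsf9, Hnrnpab, Hnrnpd, Snrpe, Snrpf and Snrpg), 9 were lower (Srsf5, Hnrnpc, Hnrnph2, Hnrnpk, Hnrnpm, Snrpa, Sf3b1, Sf3b3 and Sf3b4) and 38 did not pass at 0.05. Of all 18054 genes, 4.79% were called higher, 3.42% lower and 8.21% either way, against 28.3% of the members either way. The median log2 fold change was −0.08 over the members and −0.07 over all genes. So the members were called more often than all genes tested, in both directions, with a median like theirs. All genes tested were not matched to the members in abundance, and the part of abundance in these shares was not tested. Of the further splicing factors and of the Lsm proteins described below, 30% each were called over IgG, so the share is not particular to the members. CPEB4 and IgG libraries did not overlap in 41 members, 21 above and 20 below, where 29.4% of all genes lay above and 25.5% below.

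The classes are given in turn, and no test was made between them. For the snRNP proteins 3 of 13 were called higher and 1 lower, with a median log2 fold change of 0.36 (0.34 without Snrpert), and for the SF3 subunits 0 of 9 were higher and 3 lower, with a median of −0.55. The SR proteins had 1 higher, 1 lower and a median of −0.25, which turned to 0.03 without the first CPEB4 library and to 0.10 without the second IgG library. The hnRNPs had 2 higher, 4 lower and a median of −0.07, which ran from −0.12 to 0.38 as single libraries were left out. Without the second CPEB4 RIP library none of the 15 calls passed (adjusted p 0.147 to 0.449, with log2 fold changes of 0.71 to 1.67 and of −1.28 to −0.63), and without the first only Hnrnpab and Snrpf among the 15 did. Leaving out either IgG library kept all 6 higher calls and 7 or 8 of the 9 lower ones. The 6 were then at log2 fold changes of 0.83 to 1.67 without the first IgG library and 0.78 to 2.10 without the second. The 9 were at −1.21 to −0.34 and at −1.09 to −0.38. Far more of all genes were also called in these fits, so the kept calls do not set the members apart. Leaving out either input library, which share the estimate of the spread, kept 5 and 4.

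The comparison of CPEB4 RIP with input asks how recovery related to abundance before the immunoprecipitation. It shares the CPEB4 libraries with the first, so the results are not independent of each other. Here 15 members were higher in CPEB4 RIP, 6 were lower and 32 did not pass the same test, a called share of 39.6%, against 8.0% of all genes called higher, 4.70% lower and 12.7% either way. The median log2 fold change was 0.33 over the members and −0.06 over all genes. CPEB4 libraries lay above input without overlap in 29 members and below it in 15, where 34.4% and 37.6% of all genes did so. By class the calls were 3 higher and 2 lower for SR proteins (median −0.14), 5 and 2 for hnRNPs (0.33), 6 and 0 for snRNP proteins (0.80, or 0.84 without Snrpert) and 1 and 2 for SF3 subunits (−0.33). Scaling by library size alone moved the median of all genes to −0.27 and kept 12 of the 15 higher calls and all 6 lower ones. Without the second CPEB4 library 2 of the 15 higher calls (Hnrnpab and Hnrnpd) and none of the 6 lower ones passed, without the first 11 and 0, without the first input library 6 and 4, and without the second 8 and 2.

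**Figure D3:**
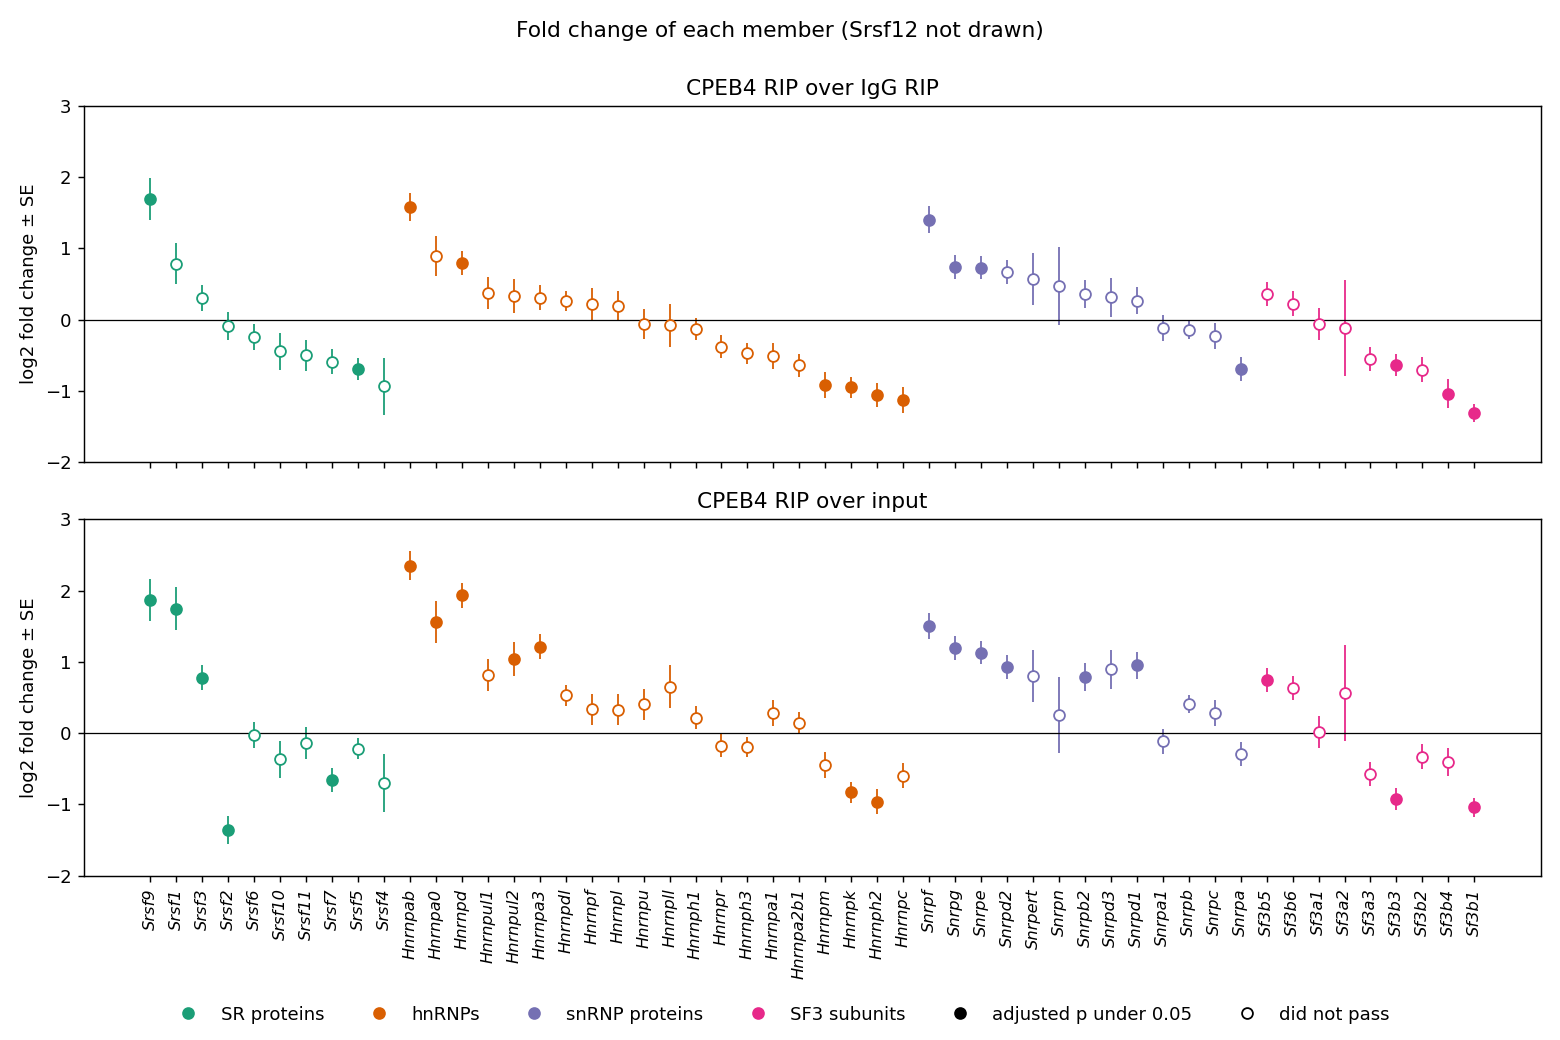
Log2 fold change with its SE (vertical axes) of 52 members in CPEB4 RIP over IgG RIP and over input, by class and in the order of the comparison with IgG. Filled points passed the edgeR test at an adjusted p of 0.05. Sf3b1 and most SF3 subunits lie below 0 against IgG (class median −0.55) and Snrpf (1.40) above it.

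Among the snRNP proteins, the Sm core messages Snrpf, Snrpe and Snrpg were higher over both backgrounds. Snrpf (Sm protein F, chromosome 10, 93583029 to 93589658) was at 103 and 104 CPM in CPEB4 RIP, against 40.2 and 38.1 CPM in IgG RIP and 32.4 and 40.8 CPM in input. Both CPEB4 libraries were above the other 4, which overlapped each other. The log2 fold change was 1.40 (SE 0.18, edgeR's adjusted p = 0.00967) over IgG and 1.5 (SE 0.18, edgeR's adjusted p = 0.00382) over input. Snrpe (Sm protein E) was at 133 and 147 CPM in CPEB4 RIP, against 79.5 and 89.6 CPM in IgG RIP and 62.8 and 65.4 CPM in input. Its groups stood apart in that order, with log2 fold changes of 0.73 over IgG (edgeR's adjusted p = 0.0353) and 1.13 over input (edgeR's adjusted p = 0.00586). Snrpg (Sm protein G) was at 84.7 and 88.4 CPM in CPEB4 RIP, against 55.6 and 48.3 CPM in IgG RIP and 38.0 and 37.5 CPM in input, again in 3 steps. It differed by 0.74 from IgG (edgeR's adjusted p = 0.0411) and by 1.20 from input (edgeR's adjusted p = 0.00619) on the log2 scale. E, F and G are known to enter the Sm ring together as one subcomplex. Whether this has any part in the recovery of their messages was not tested.

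The D proteins, which enter the ring as other subcomplexes, passed over input alone or not at all. No test compared them with E, F and G. Snrpd2 was at 207 and 236 CPM in CPEB4 RIP, against 133 and 145 CPM in IgG RIP and 104 and 129.5 CPM in input. Its CPEB4 libraries were above all others, and the log2 fold changes were 0.67 over IgG (edgeR's adjusted p = 0.0523, short of the threshold) and 0.92 over input (edgeR's adjusted p = 0.0141). Snrpd1 was at 151 and 194 CPM in CPEB4 RIP, against 126 and 161 CPM in IgG RIP and 87.3 and 91.2 CPM in input, so it overlapped with IgG but not with input (log2 fold change 0.95, edgeR's adjusted p = 0.0193). Snrpd3 passed neither test, at 24.9 and 23.3 CPM in CPEB4 RIP, 15.5 and 23.2 CPM in IgG RIP and 13.3 and 12.5 CPM in input. Snrpb, the most abundant, was at 519 and 526 CPM in CPEB4 RIP, against 574 and 580.0 CPM in IgG RIP and 389.6 and 396 CPM in input. It lay between its backgrounds without overlap and passed over neither (log2 fold changes −0.14 and 0.41). Snrpn, the imprinted SmN protein best known from neurons, had 2.64 to 7.04 CPM in all libraries, and its groups overlapped. Over the 8 Sm core messages, Snrpn included, 3 were higher over IgG and 0 lower (median 0.57), and 5 were higher over input and 0 lower (median 0.94).

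Of the 4 messages for proteins particular to U1 or U2, 1 was called lower than IgG and 1 higher over input. Snrpa (the A protein of U1, which binds a loop of the U1 RNA) was at 92.0 and 100.1 CPM in CPEB4 RIP, against 165 and 146 CPM in IgG RIP and 130 and 105 CPM in input. It was lower than IgG by a log2 fold change of −0.69 (edgeR's adjusted p = 0.0489) and did not pass against input at −0.29, although its CPEB4 libraries lay below both backgrounds. This call is close to the threshold and was lost in 11 of the 17 alternative fits described below. Snrpb2 (the U2 protein B″) was at 57.0 and 69.0 CPM in CPEB4 RIP, against 44.9 and 53.3 CPM in IgG RIP and 34.4 and 38.8 CPM in input. Its libraries were above both backgrounds, with a call over input alone (log2 fold change 0.79, edgeR's adjusted p = 0.0410). Snrpc (the C protein of U1) and Snrpa1 (the U2 protein A′) passed neither test, with log2 fold changes of −0.23 and −0.11 against IgG. Snrpert, the pseudogene, was at 10.4 CPM in both CPEB4 libraries and 5.15 to 8.38 CPM in the other 4, and passed neither.

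None of the 9 SF3 messages was called higher over IgG, and the 3 called lower belong to SF3b. Sf3b1 (chromosome 1, 54985169 to 55027501), the large subunit that clamps the branch point helix, was at 419.9 and 430.4 CPM in CPEB4 RIP, against 994 and 1112 CPM in IgG RIP and 844 and 906 CPM in input. Its CPEB4 libraries were far below the rest, with log2 fold changes of −1.31 (SE 0.13, edgeR's adjusted p = 0.00719) against IgG and −1.04 (SE 0.13, edgeR's adjusted p = 0.00423) against input. Sf3b3, a scaffold subunit that binds Sf3b1, was at 85.1 and 90.8 CPM in CPEB4 RIP, against 146 and 127 CPM in IgG RIP and 170.2 and 163 CPM in input. It was below both backgrounds without overlap, by log2 fold changes of −0.63 (edgeR's adjusted p = 0.0470) and −0.92 (edgeR's adjusted p = 0.00992). The call against IgG was lost in 11 of the 17 alternative fits, and the call against input in 6. Sf3b4, which contacts the pre-mRNA near the branch point, was at 48.5 and 38.5 CPM in CPEB4 RIP, against 88.6 and 89.7 CPM in IgG RIP and 64.2 and 50.9 CPM in input. It lay below both groups but was called against IgG alone (log2 fold change −1.04, edgeR's adjusted p = 0.0245, and −0.41 with edgeR's adjusted p = 0.228 against input).

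The small SF3b subunits had values above their backgrounds. Sf3b5 was at 64.0 and 71.0 CPM in CPEB4 RIP, against 52.9 and 52.5 CPM in IgG RIP and 39.2 and 41.2 CPM in input. The groups stood apart in that order, and Sf3b5 passed over input (log2 fold change 0.75, edgeR's adjusted p = 0.0289) but not over IgG (0.36, edgeR's adjusted p = 0.223). Sf3b6, which touches the branch point adenosine, had the same order of groups and passed neither test, with log2 fold changes of 0.23 over IgG and 0.63 over input (edgeR's adjusted p = 0.0515). Sf3b2 and Sf3a3 lay below both backgrounds without passing, at −0.70 and −0.55 against IgG (edgeR's adjusted p = 0.0528 and 0.0901). Sf3a1 was level, at 21.2 to 26.2 CPM in all 6 libraries, and Sf3a2 was low, at 1.01 to 3.40 CPM.

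The hnRNPs held the widest rise of the 53 members over input. Hnrnpab (chromosome 11, 51600100 to 51606881), a binder of single-stranded nucleic acids that also takes part in transport of messages, was at 234 and 245 CPM in CPEB4 RIP, against 75.6 and 85.2 CPM in IgG RIP and 39.4 and 54.8 CPM in input. The groups stood apart in 3 steps, with log2 fold changes of 1.58 (SE 0.20, edgeR's adjusted p = 0.00866) over IgG and 2.35 (SE 0.20, edgeR's adjusted p = 0.00184) over input. Hnrnpd (AUF1, chromosome 5, 99955935 to 99979130), which binds AU-rich elements and directs decay of such messages, was at 123 and 136 CPM in CPEB4 RIP, against 68.5 and 80.9 CPM in IgG RIP and 33.5 and 34.2 CPM in input. It too formed 3 steps, and rose by 0.79 over IgG (SE 0.17, edgeR's adjusted p = 0.0330) and 1.93 over input (SE 0.17, edgeR's adjusted p = 0.00184) on the log2 scale. The related Hnrnpdl, beside Hnrnpd on chromosome 5, was at 319 and 319.7 CPM in CPEB4 RIP, 263 and 272 CPM in IgG RIP and 206 and 237 CPM in input. Its order was the same but it passed neither test, with log2 fold changes of 0.26 over IgG and 0.53 over input (edgeR's adjusted p just above the threshold).

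Hnrnpa0, Hnrnpa3 and Hnrnpul2 were called over input alone. Hnrnpa0, an A/B type hnRNP that binds AU-rich elements, was at 141 and 143 CPM in CPEB4 RIP, against 52.1 and 100.1 CPM in IgG RIP and 45.5 and 50.7 CPM in input. Its IgG libraries differed widely from each other, and the log2 fold changes were 0.89 over IgG (edgeR's adjusted p = 0.0952) and 1.56 over input (edgeR's adjusted p = 0.0146). Hnrnpa3 was at 203 and 202 CPM in CPEB4 RIP, against 155 and 171 CPM in IgG RIP and 76.0 and 98.7 CPM in input, and Hnrnpul2, a relative of the scaffold protein Hnrnpu, at 29.4 and 25.7 CPM in CPEB4 RIP, against 19.3 and 24.5 CPM in IgG RIP and 12.6 and 14.2 CPM in input. Both rose in steps, by 1.21 and 1.04 over input on the log2 scale (edgeR's adjusted p = 0.00630 and 0.0324). Over IgG they were at 0.31 and 0.33 and did not pass.

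Of the hnRNPs called lower, Hnrnpk and Hnrnph2 were so against both backgrounds. Hnrnpk, which binds C-rich stretches, was at 790.4 and 816 CPM in CPEB4 RIP, against 1451 and 1653 CPM in IgG RIP and 1290.2 and 1568 CPM in input. Its CPEB4 libraries were below the overlapping backgrounds, by log2 fold changes of −0.95 (edgeR's adjusted p = 0.0145) and −0.83 (edgeR's adjusted p = 0.0126). Hnrnph2, which binds runs of G, was at 126 and 137 CPM in CPEB4 RIP, against 264 and 282 CPM in IgG RIP and 221 and 290.2 CPM in input. The picture was the same, at −1.06 (edgeR's adjusted p = 0.0164) and −0.96 (edgeR's adjusted p = 0.0131), whereas its close relative Hnrnph1 was at −0.13 and 0.22 and passed neither test. Whether the relatives differed from each other was not tested.

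Hnrnpc and Hnrnpm were called against IgG alone. Hnrnpc, which binds U tracts in nascent transcripts, was at 399 and 431 CPM in CPEB4 RIP, against 806 and 1009.8 CPM in IgG RIP and 552 and 705 CPM in input. It lay below both groups, with log2 fold changes of −1.13 (SE 0.18, edgeR's adjusted p = 0.0150) and −0.60 (edgeR's adjusted p = 0.0681). Hnrnpm, a binder of GU-rich stretches, was at 138 and 155 CPM in CPEB4 RIP, against 233 and 319 CPM in IgG RIP and 192 and 206 CPM in input. It was also below both groups, at −0.91 (edgeR's adjusted p = 0.0291) and −0.44 (edgeR's adjusted p = 0.166). The highly expressed Hnrnpa1 and Hnrnpa2b1 lay between their backgrounds, below IgG and above input without overlap, and passed neither test. Against IgG, Hnrnpa2b1 was just short of the threshold, at a log2 fold change of −0.64 (edgeR's adjusted p = 0.0518). Hnrnpa1 was at 582 and 664 CPM in CPEB4 RIP, against 769 and 1012 CPM in IgG RIP and 459.9 and 563 CPM in input. The other hnRNPs without a call (Hnrnpf, Hnrnph3, Hnrnpl, Hnrnpll, Hnrnpr, Hnrnpu and Hnrnpul1) ranged within those of the class that did not pass, from −0.64 to 0.89 over IgG and from −0.60 to 0.81 over input.

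SR proteins held calls in both directions. Srsf9 (chromosome 5, 115327163 to 115333843), a short SR protein akin to Srsf1, was at 73.7 and 81.1 CPM in CPEB4 RIP, against 19.8 and 27.9 CPM in IgG RIP and 15.9 and 26.5 CPM in input. Its CPEB4 libraries were far above the overlapping backgrounds. The log2 fold change was 1.69 over IgG (SE 0.29, edgeR's adjusted p = 0.0189), the widest rise among the called members there, and 1.87 over input (SE 0.30, edgeR's adjusted p = 0.00826). Srsf1 itself, a founding member of the family that also acts in translation, was at 199 and 238 CPM in CPEB4 RIP, against 91.8 and 161 CPM in IgG RIP and 53.3 and 77.1 CPM in input. It formed 3 steps and passed over input (log2 fold change 1.75, edgeR's adjusted p = 0.0110) but not over IgG (0.79, edgeR's adjusted p = 0.137), whose libraries differed widely. Srsf3, the smallest of the family and an adaptor for mRNA export, was at 473 and 548 CPM in CPEB4 RIP, against 370.1 and 459 CPM in IgG RIP and 267 and 329 CPM in input. Its CPEB4 libraries were above both, with a call over input alone (log2 fold change 0.78, edgeR's adjusted p = 0.0295).

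Srsf5, Srsf7 and Srsf2 were the SR messages called lower. Srsf5 was at 594 and 649.9 CPM in CPEB4 RIP, against 891 and 1117 CPM in IgG RIP and 699 and 746 CPM in input. It was below both without overlap and passed against IgG alone (log2 fold change −0.69, edgeR's adjusted p = 0.0378). That call was lost in 9 of the 17 alternative fits. Srsf7, like Srsf3 an export adaptor, was at 573 and 687 CPM in CPEB4 RIP, against 865 and 1029 CPM in IgG RIP and 889.7 and 1096 CPM in input. It was below both and passed against input alone (−0.66, edgeR's adjusted p = 0.0460, with −0.59 and edgeR's adjusted p = 0.0769 against IgG). Its call against input was lost without the low-count filter, in the limma fits and with the length offset described below. Srsf2 (SC35, a marker of nuclear speckles) was at 112 and 139 CPM in CPEB4 RIP, against 128 and 138 CPM in IgG RIP and 272 and 367 CPM in input. Both kinds of immunoprecipitation were well below input and overlapped with each other. The log2 fold change was −1.35 against input (SE 0.20, edgeR's adjusted p = 0.00653) and −0.09 against IgG. Srsf4, Srsf6, Srsf10, Srsf11 and Srsf12 passed neither test, and Srsf4 was low, at 4.89 to 11.8 CPM in all libraries.

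IgG RIP was set against input to show the background of the pull-down itself. No member and no gene of the 18054 passed edgeR's quasi-likelihood test with Benjamini-Hochberg adjustment (0% of all genes called), while 20 members were higher and 1 lower at an unadjusted p under 0.05, as were 1372 and 1178 of all genes. DESeq2's Wald test called 8 members higher and 1 lower, where it called 4.42% higher and 2.89% lower of the 9653 genes to which it gave an adjusted p. With either IgG library left out, edgeR called some members and many of all genes, in both directions. The median log2 fold change of the members was 0.39, against 0.05 over all genes, and 46 of the 53 were fitted above 0. IgG libraries lay above input without overlap in 33 members and below in 3, where 21.4% and 20.7% of all genes did so. Among hnRNPs 16 of 20 were above and 0 below. Hnrnpd was at 68.5 and 80.9 CPM in IgG RIP against 33.5 and 34.2 CPM in input, and Srsf2 at 128 and 138 CPM in IgG RIP against 272 and 367 CPM in input. Neither passed, with log2 fold changes of 1.14 and −1.26 (edgeR's adjusted p = 0.153 and 0.155).

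Members also differed in length, which was read as a relative value from the ratio of counts to FPKM. Relative to the median gene tested, the median length was 0.562 for snRNP proteins, 1.0 for SF3 subunits, 1.04 for SR proteins and 1.54 for hnRNPs. The snRNP value includes Snrpert, which was at 0.0726. Sf3b1 and Sf3b3, both lower in CPEB4 RIP, were at 2.96 and 2.84, and Snrpf, Snrpe and Snrpg, all higher, at 0.224, 0.357 and 0.409. Among the other calls over IgG, Srsf9 and Hnrnpab, called higher, were at 0.430 and 0.724. Srsf5, Hnrnpc, Hnrnph2, Hnrnpk and Hnrnpm, called lower, were at 1.04, 1.13, 1.14, 1.68 and 2.07. The rest of these calls went the other way. Hnrnpd, called higher, was at 1.91, and Snrpa and Sf3b4, called lower, were at 0.772 and 0.563. Across the 53 members, Spearman's rho between length and the log2 fold change was −0.38 over IgG and −0.32 over input, and across all 18054 genes it was −0.20 and −0.25. These are descriptions across genes that share the same libraries. For IgG RIP over input it was 0.08 across members and −0.09 across all genes. With length fitted as an offset, 1 of the 6 higher calls over IgG (Hnrnpab) and 4 of the 9 lower calls (Hnrnpc, Hnrnph2, Sf3b1 and Sf3b4) passed, as did 12 of the 15 higher calls and 1 of the 6 lower calls (Srsf2) against input.

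**Figure D4:**
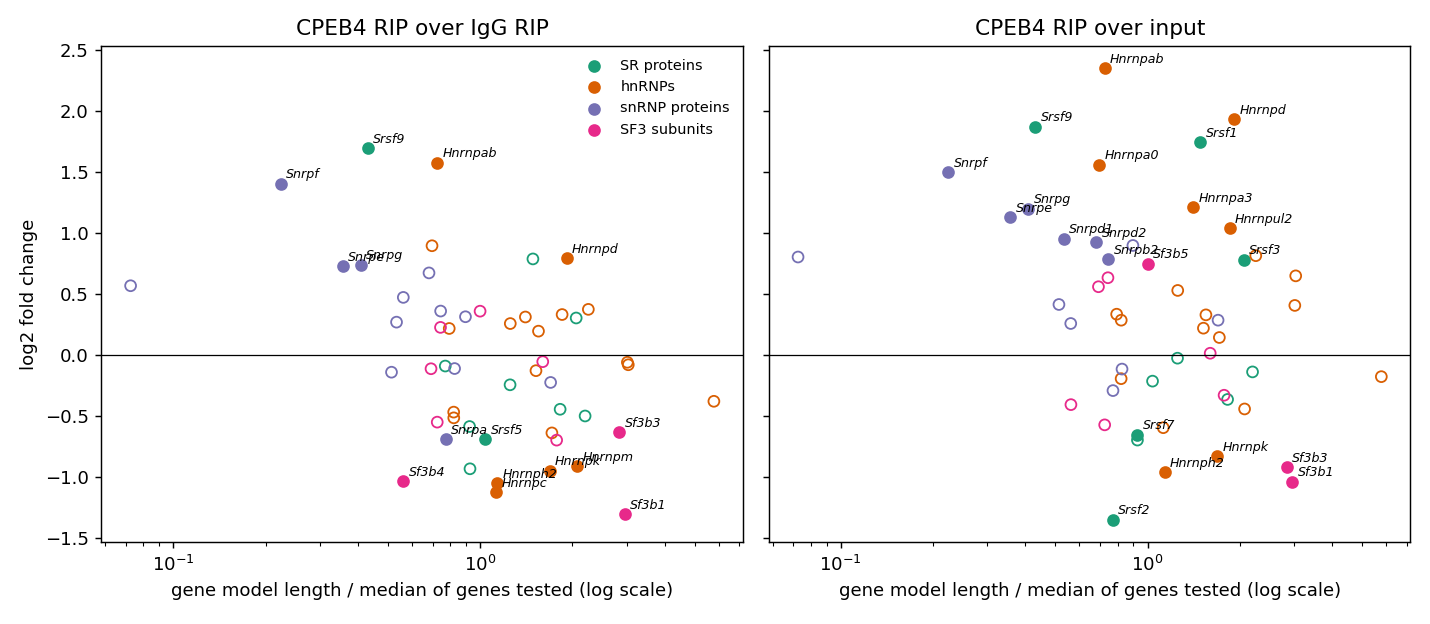
Log2 fold change of 52 members (vertical axis) against gene model length relative to the median of the genes tested (log scale), for CPEB4 RIP over IgG RIP and over input. Filled, named points passed the edgeR test. Snrpf lies at a relative length of 0.224 with 1.40 over IgG, and Sf3b1 at 2.96 with −1.31.

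Other genes of the pathway were read from a list of 81 further splicing factors, of which 80 were tested. This list and that of the Lsm proteins were chosen with earlier results of these data known. Over IgG 2 of the 80 were higher (2.5%) and 22 lower (27.5%), with a median log2 fold change of −0.42. Over input 13 were higher (16.2%) and 16 lower (20%), with a median of −0.16. For all genes tested, 4.79% were higher and 3.42% lower over IgG, and 8.0% and 4.70% over input. Higher over IgG were Pcbp2, a poly(C) binding relative of Hnrnpk, at 1.69 and Txnl4a, a U5 snRNP protein, at 1.27. The widest falls were in Crnkl1 (−1.48) and Cdc5l (−1.47), both of the complex around Prpf19, in Prpf3 of the U4/U6 particle (−1.46), in Bud13 (−1.28), in Ewsr1 (−1.27) and in the speckle scaffold Srrm2 (−1.25). Of the 10 Lsm proteins, which form rings like the Sm core, 3 (30%) were higher over IgG and 0 lower, with a median of 0.81. They were Lsm5 at 1.72, Lsm10 at 1.31 and Lsm3 at 1.08. Over input 3 (30%) Lsm proteins were higher and 0 lower, with a median of 0.75. The Lsm median and the Sm core median (0.57 over IgG and 0.94 over input) were both above the median of all genes, which was −0.07 over IgG and −0.06 over input.

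Single members carry limits from the counting, whose strand setting and treatment of reads with several matches the sources used here do not state. In RefSeq on GRCm38.p6, Srsf9 overlaps Gatc, Hnrnpab overlaps Phykpl, Snrpf overlaps Ccdc38, Hnrnpk overlaps Rmi1, Snrpa overlaps BC024978 and Sf3b3 overlaps Cog4. Likewise Srsf2 overlaps Mfsd11, Hnrnpd overlaps Gm42127 and 4930524J08Rik, and Sf3b4 overlaps Gm22027. Some members without a call also overlap other genes. Reads of such a pair cannot be told apart where they overlap. Messages with near-identical copies elsewhere in the genome, such as Hnrnpa1 with its pseudogenes, are uncertain for the same reason.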

How the data were processed

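SMART-seq2 RNA libraries were sequenced, and reads were aligned with HISAT2 to mm10 and counted with featureCounts, per the submitters' processing notes; the sources used here state no versions, annotation or strand setting. The deposited table holds raw counts per gene with no normalization by the authors, and a second deposited table holds FPKM, fragments scaled by gene length and library total. Groups came from the sample labels (3 groups of 2 libraries).

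Counts were tested in R 4.3.3 with edgeR 4.0.16 (filterByExpr with a minimum count of 10 and total of 15, TMM, glmQLFit and glmQLFTest on all 6 libraries with group as the only term and 3 residual degrees of freedom, two-sided, Benjamini-Hochberg over 18054 genes, threshold 0.05). SE is the absolute log2 fold change over the square root of F. SD is over 2 libraries. Steps were tested on simulated data.

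Alternatives were other scalings and filters, DESeq2 1.42.0, limma 3.58.1 on log2(FPKM + 1) and log2(FPKM + 0.1), a replicate block, a length offset and each library left out, with class values without Snrpert chosen after seeing the data. The members and lists were chosen with earlier results of these data known. Named with values in every library were members past either test with CPEB4 RIP, the 3 with the smallest p over IgG in each class and the class's most abundant by FPKM. Of the other splicing list at most the 6 widest past the test over IgG each way were named. Others were named after their values were seen. RefSeq tables (GRCm38.p6) gave positions and promoters for the symbols; all 53 members matched.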

Additional observations from a re-analysis of the deposited data

How the results depend on the processing

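Of the 37 gene results, recomputed under 17 alternatives each, 465 of 629 values kept direction and side of the threshold and 0 reversed. Members called lower than IgG (9) numbered 14 by library size alone, 15 at a mean count of at least 20, 15 by DESeq2, 5 by limma on log2(FPKM + 1) or log2(FPKM + 0.1), 1 by limma without a filter and 4 with the length offset. Members higher over IgG (6) numbered 2 by limma without a filter and 1 with the length offset. The hnRNP median over IgG (−0.07) became 0.039, 0.0496 and 0.039 by these limma fits in turn and 0.18 with the offset, which gave 0.25 for snRNP proteins (0.36) and −0.35 for SF3 subunits (−0.55). Against input, 7 members were higher (15) and 2 lower (6) by limma without a filter, 10 lower by library size and 1 lower with the offset. Library size moved the medians over input to 0.12 for hnRNPs (0.33), 0.58 for snRNP proteins (0.80) and −0.55 for SF3 subunits (−0.33). A mean count of 20 gave 0.65 and −0.48 for the last 2 classes, and the offset −0.10 for SF3 subunits. IgG RIP with input gave 6 higher and 1 lower without a filter, 8 and 1 by DESeq2. Calls lost both by limma without a filter and with the offset included those of Hnrnpm and Snrpg over IgG and of Snrpb2 and Srsf7 over input. The call of Hnrnpul2 over input was lost by library size alone and in the limma fits. The causes were not tested.

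Each library left out in turn gave 0 to 19 higher and 0 to 13 lower over IgG, 2 to 23 higher and 0 to 8 lower over input, and 0 to 18 higher and 0 to 2 lower for IgG RIP with input. Class medians over IgG ran from −0.29 to 0.10 (SR proteins), −0.12 to 0.38 (hnRNPs), 0.41 to 0.65 (snRNP proteins) and −0.55 to −0.29 (SF3 subunits). Over input they ran from 0.79 to 0.97 (snRNP proteins) and −0.40 to −0.18 (SF3 subunits). Without IgG RIP replicate 1 the median of all genes over IgG moved to 0.33. With 1 library left in a group, that library is assumed to vary like the others.

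Replicate numbers are shared by the groups, but the labels do not say that they pair libraries, and differences between replicates correlated across 18054 genes at 0.133 (CPEB4 and IgG), −0.0160 (CPEB4 and input) and 0.0697 (IgG and input). With a replicate block 9 members were higher and 13 lower over IgG, the 6 and 9 called without it among them, 19 were higher and 7 lower over input, the 15 and 6 among them, and 1 member was lower in IgG RIP than in input. Over all genes the block gave 1066 higher and 784 lower over IgG (864 and 618 without it). Depth limits Srsf12 most, which had 0 counts in 1 library.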
